A study of Caenorhabditis elegans with 2 samples.

Results

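The 10 genes described here are components of the Ras pathway of Caenorhabditis elegans and the EOR pair, taken by name from Ensembl release 115 of the WBcel235 assembly, the sequence of ce11: lin-3, let-23, let-60, lin-45, mpk-1, lip-1, lin-1, lin-31, eor-1 and eor-2. They are 10 of 19973 protein-coding genes on the nuclear chromosomes. Occupancy by GFP-tagged EOR-1 had been assayed by chromatin immunoprecipitation and sequencing (ChIP-seq) in whole L3 larvae, with 2 biological replicates of a single group. The strain was OP81, an unc-119(ed3) III mutant that carries wgIs81, a transgene insertion for eor-1; both sexes were pooled, and the labelled age is unknown. The antibody entry of the labels reads eor-1, and their summary of the assay names an eGFP fusion. No untagged or eor-1 mutant group was analysed here, and because the animals were lysed whole, a site used in a few vulval cells and a weak site used everywhere cannot be told apart.

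In the worm, the epidermal growth factor LIN-3 activates the receptor LET-23, which signals through LET-60 (Ras), LIN-45 (Raf) and the kinase MPK-1 (ERK) to nuclear factors that include LIN-1 and LIN-31. In L3 larvae this cascade patterns the vulva, and it also acts in the excretory duct cell and the germ line. EOR-1, a BTB and zinc finger protein, works together with EOR-2 downstream of MPK-1 in positive nuclear output of the pathway. The genes of the cascade and the EOR pair were therefore examined one by one for EOR-1 candidates.

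A candidate is an entry of the peak list that the authors called on the reads of both replicates together, which holds 6708 entries and includes background besides peaks. It was given to a gene when its summit lay inside the gene or within 5000 bp of one of its transcript starts. Candidates were ranked by the peak caller's signal value, a number with no stated unit that orders entries within 1 list only. A candidate was counted as shared with a replicate when that replicate's own list (2488 entries in replicate 1 and 2610 in replicate 2) had a summit within 200 bp. Read depth is unknown, because the lists hold no read counts, so no signal value below has a counting error of its own. Of the short list of 33 peaks that the authors kept at a threshold on the irreproducible discovery rate (IDR), which measures how well ranks repeat between replicates, 0 lay at any of the 10 genes. Such a peak lay at 0.35% of all protein-coding genes under the same rule.

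Of the 10 genes, 5 had at least 1 pooled candidate, and they had 8 candidates in all. The kinase gene mpk-1 stood highest, with candidates of rank 82 and 924 in its long first intron. The Ras gene let-60 had 1 candidate upstream (rank 1159), eor-2 had 1 upstream and 1 downstream (ranks 1312 and 1403), the Raf gene lin-45 had 2 around its alternative starts (ranks 1928 and 5135) and lin-1 had 1 in an intron (rank 3041). No pooled candidate lay at lin-3, let-23, lip-1, lin-31 or eor-1. The share of genes with a candidate, 50% (exact Clopper-Pearson 95% interval 18.7 to 81.3), was close to the background of 44.9% over all protein-coding genes. That interval covers counting only and treats the 10 genes, a fixed list, as independent, so it is no test against the background. Of the 19867 genes whose searched region was between 10.001 and 31.106 kb, the range of the 10 genes, 44.7% had a candidate. Those are nearly all of the 19973 protein-coding genes, so that share does not account for region length, whose part was not tested. Only mpk-1, 1 of the 10 genes, had candidates among the 1000 strongest, against 10.2% of all protein-coding genes, which is again near the background.

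**Figure D1:**
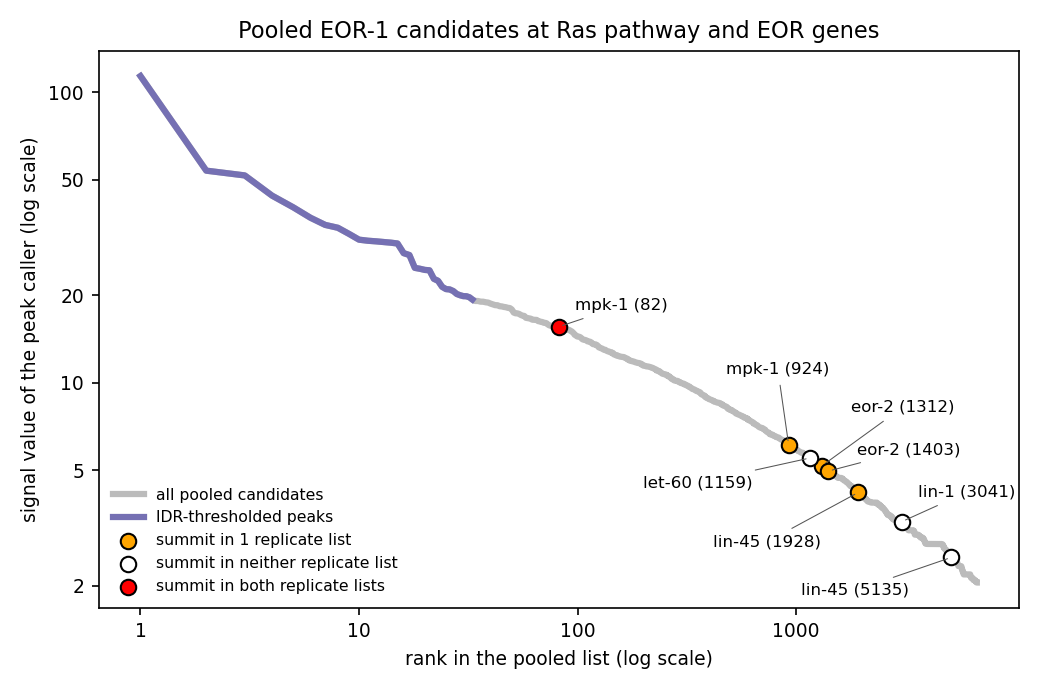
Signal value against rank, both on log scales, for the 6708 pooled candidates (grey) with the 33 thresholded peaks in purple. Circles are the 8 candidates at the listed genes with their ranks in brackets, filled by the number of replicate lists that held a summit within 200 bp; the mpk-1 candidate of rank 82 is the highest and the only one held by both, and the other 7 lie at ranks 924 to 5135.

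The sequences below are those of the candidates that lead the mpk-1 and eor-2 results, as the 201 bases centred on each summit in ce11, 5′ to 3′ on the plus strand, from the RefSeq WBcel235 assembly. Capitals mark exact matches, on either strand, to the 7-base GACGCAG and the GAGA-type hexamer GAGAGA; on this strand a minus-strand match reads CTGCGTC or TCTCTC. The 7-base sequence was itself taken from earlier results of these data. The hexamer was searched for because those results had found GAGA-type sequences at the strongest EOR-1 candidates. The mpk-1 windows cover chrIII:4223724-4223924 and chrIII:4223940-4224140, and the eor-2 windows cover chrX:14602663-14602863 and chrX:14610566-14610766.
mpk-1 intron, rank 82: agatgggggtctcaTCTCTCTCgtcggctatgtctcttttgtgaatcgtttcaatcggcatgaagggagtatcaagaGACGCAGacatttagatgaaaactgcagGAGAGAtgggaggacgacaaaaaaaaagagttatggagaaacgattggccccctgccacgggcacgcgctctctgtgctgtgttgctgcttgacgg
mpk-1 intron, rank 924: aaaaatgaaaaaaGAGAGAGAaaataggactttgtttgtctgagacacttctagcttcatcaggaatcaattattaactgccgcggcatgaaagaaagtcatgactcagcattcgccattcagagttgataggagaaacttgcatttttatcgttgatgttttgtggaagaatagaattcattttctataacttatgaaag
eor-2 upstream, rank 1312: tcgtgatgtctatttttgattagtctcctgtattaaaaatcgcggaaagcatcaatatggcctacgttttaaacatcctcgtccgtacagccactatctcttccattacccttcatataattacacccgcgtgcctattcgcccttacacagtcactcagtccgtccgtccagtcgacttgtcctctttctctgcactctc
eor-2 downstream, rank 1403: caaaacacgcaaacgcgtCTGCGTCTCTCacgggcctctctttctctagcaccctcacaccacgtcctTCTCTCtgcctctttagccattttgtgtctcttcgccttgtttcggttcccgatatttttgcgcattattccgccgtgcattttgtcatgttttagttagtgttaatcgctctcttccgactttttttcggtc

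GACGCAG was present within 100 bp of the summit in 2 of the 8 candidates, against 8.06% of all pooled candidates, and GAGAGA was present in 5 of 8, against 26.9%. The GACGCAG matches were those at the rank 82 candidate of mpk-1 and the rank 1403 candidate of eor-2. The 5 with GAGAGA include both mpk-1 candidates, whose summits were 216 bp apart. In the strongest 100 candidates of the pooled list GACGCAG was present in 22.0% and GAGAGA in 56.0%. In ranks 1001 to 2000, which held 4 of the 8 candidates, the shares were 11.1% and 33.2%. A match is a description of the sequence and not a mapped site. Both sequences were chosen from earlier results of these same data. The shares above, among the 8 candidates and among the strongest 100, are therefore no independent evidence.

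The ligand gene lin-3 (chrIV:11054308-11063768, plus strand, 11 transcripts with 7 distinct starts) encodes the epidermal growth factor that the anchor cell sends to the vulval precursors. It had 0 candidates in the pooled list and 0 in either replicate's list. The nearest pooled summit lay 17807 bp upstream, at rank 780 with a signal of 6.61, and was 81 bp upstream of fkb-1. Replicate 1 had a summit at the same base (rank 186), while the nearest summit of replicate 2 was a different one on the other side of lin-3, 19281 bp beyond its 3′ end (rank 84). All 3 lists were thus empty over the 14.99 kb searched at lin-3.

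The receptor gene let-23 (chrII:9197512-9207213, plus strand) encodes the worm's only epidermal growth factor receptor. It also had 0 candidates in all 3 lists. Its nearest pooled summit was 6752 bp upstream, just outside the distance used, with rank 3980, a signal of 2.78 and no summit in either replicate list. The nearest summits of replicates 1 and 2 were 10301 bp and 10758 bp from the gene, so neither replicate supported the weak pooled entry.

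The Ras gene let-60 (chrIV:11688227-11691088, minus strand), whose gain-of-function alleles give extra vulvae, had 1 pooled candidate at chrIV:11692258-11692661. The signal was 5.51 (rank 1159), and the summit was 1372 bp upstream of the single annotated start. Neither replicate list had a summit within 200 bp, and their nearest summits were 11767 bp (replicate 1) and 8770 bp (replicate 2) from the gene. The summit lay inside ZK792.10, annotated as a noncoding RNA gene, and the nearest protein-coding start was that of ZK792.12, 1333 bp away. Under the same distance rule ZK792.5, ZK792.7 and ZK792.12 would share this candidate with let-60. The window held 2 GAGAGA matches and no GACGCAG.

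The Raf gene lin-45 (chrIV:6742537-6748572, minus strand) had 6 annotated starts and 2 pooled candidates among them. The stronger, chrIV:6747690-6748093, had a signal of 4.19 (rank 1928). Its summit lay 680 bp downstream of the first start and 9 bp upstream of the start of transcript Y73B6A.5d.1, inside the first intron of longer transcripts. Replicate 1 had a summit 139 bp away, at rank 2156 with a signal of 2.22, and replicate 2 had none, its nearest being 8096 bp from the gene. The weaker, chrIV:6747098-6747501, had a signal of 2.50 (rank 5135, tied in a group of 19 candidates with the same value) and was in a coding exon 104 bp downstream of a start. It had no summit in either replicate list, and the rule would also give it to smg-7. Neither window held GACGCAG or GAGAGA. Many worm transcripts are trans-spliced, so an annotated start can lie downstream of where transcription begins.

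The ERK gene mpk-1 (chrIII:4216763-4228108, minus strand) encodes the kinase at the end of the cascade, and it had the strongest candidate of the 10 genes. That candidate, chrIII:4223622-4224025, had a signal of 15.6 in the pooled list (rank 82, the upper 1.22%). Replicate 1 had a summit 119 bp away with a signal of 9.98 (rank 61), and replicate 2 had one 76 bp away with a signal of 2.87 (rank 1200). The site was therefore among the strongest of replicate 1 and in the middle of the list of replicate 2. A candidate of this rank or better lay at 0.916% of all protein-coding genes. That share is per gene, whereas mpk-1 was the highest of 10 genes. Its searched region was also longer, at 18.5 kb beside a median of 10.001 kb over protein-coding genes. The share is therefore no measure of how unusual the mpk-1 candidate is. The weakest thresholded peak had rank 33 and a signal of 19.3, so mpk-1 was below the authors' threshold.

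The second mpk-1 candidate, chrIII:4223838-4224241, had a signal of 6.11 (rank 924). Its summit was 216 bp from the first, a spacing as close as that of 4.20% of pooled candidates to a neighbour. It is not an independent site in replicate 1, because the single replicate 1 summit, 97 bp away, was the partner of both candidates. Replicate 2 had no second summit within 200 bp, although its 1 peak overlapped both pooled candidates. The replicate summits were 195 bp apart, on either side of the rank 82 summit. When summits had to be within 100 bp, replicate 1 no longer counted for the rank 82 candidate, and 0 of the 8 candidates were in both lists.

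**Figure D2:**
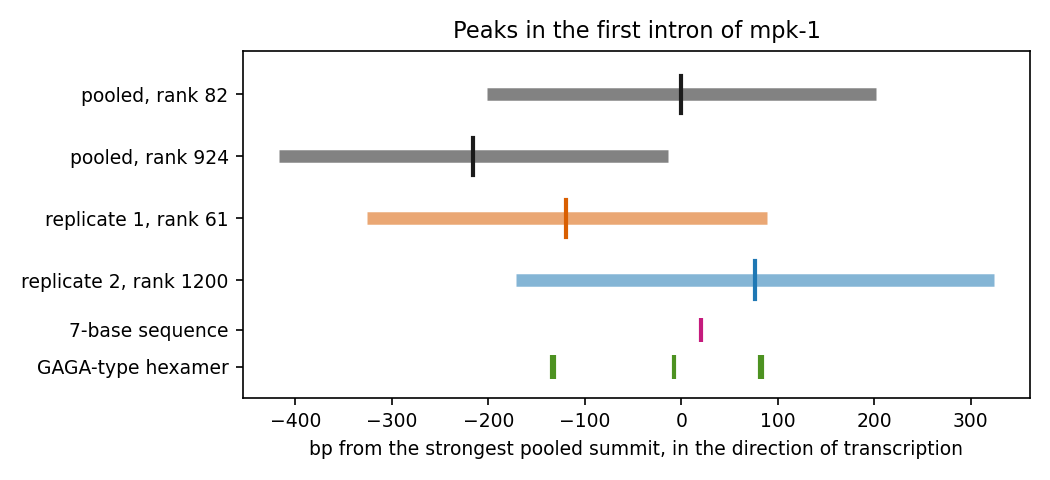
Peaks of the pooled list and of each replicate in the first mpk-1 intron, as bars with their summits as vertical lines, by distance in bp from the strongest pooled summit in the direction of transcription. Ticks give the 7-base sequence and the GAGA-type hexamer within 100 bp of either pooled summit; the 7-base sequence lies 20 bp from that summit, and the replicate summits lie 119 bp before it and 76 bp after it.

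Both mpk-1 candidates lay in intron 1 of transcripts F43C1.2a.1 and F43C1.2b.1, which spans 8247 bp (chrIII:4219644-4227890). The rank 82 summit was 4270 bp downstream of the nearer distal start and 4181 bp upstream of the internal start of transcript F43C1.2a.2, close to the middle between them. No other protein-coding gene qualified for either candidate, and no other annotated gene contained the summits. Of the 100 strongest pooled candidates, 9 were more than 4000 bp from any protein-coding start, against 9.12% of all pooled candidates, so such distances were about as frequent among the strongest candidates as among all. The rank 82 window held 1 GACGCAG and 3 GAGAGA matches, of which the nearest hexamer was 7 bp from the summit, and the rank 924 window held 2 overlapping GAGAGA matches.

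The phosphatase gene lip-1 (chrIV:6842958-6846011, plus strand) encodes a dual-specificity phosphatase that removes activating phosphates from MPK-1. It had 0 candidates in the 3 lists. The nearest pooled summit was 8042 bp upstream (rank 4478, signal 2.78) and in neither replicate list. The nearest replicate summits were 32977 bp and 32921 bp away, both nearer to ceh-48 than to any other protein-coding start.

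Of the nuclear targets, lin-1 (chrIV:2275861-2300286, minus strand) encodes an ETS-domain factor that blocks vulval fates until MPK-1 phosphorylates it. Its single candidate, chrIV:2281388-2281791, had a signal of 3.32 (rank 3041) and was in neither replicate list; the nearest replicate summits were 54347 bp and 16682 bp from the gene. The summit was in intron 2 of C37F5.1a.1, which spans 20948 bp, at 2409 bp upstream of the internal start of C37F5.1b.1. The window held 1 GAGAGA.

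The other nuclear target, lin-31 (chrII:3982549-3987029, plus strand), encodes a winged-helix factor that forms a complex with LIN-1 in vulval precursors. It had 0 candidates in all 3 lists. The nearest pooled summit was strong, with rank 187 and a signal of 11.7, but it lay 23690 bp upstream and 3364 bp from the start of sea-2. It had a summit in both replicate lists. Replicate 2 alone had a weak summit 2083 bp beyond the 3′ end of lin-31 (rank 2352), which is 6563 bp from the lin-31 start and so outside the rule.

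The endogenous eor-1 locus (chrIV:4793194-4799178, minus strand) had no entry in any list over the 14.4 kb searched. The tagged copy is carried by the transgene wgIs81, and the lists do not tell that copy apart from the endogenous locus. The nearest summit of replicate 1 was 11823 bp beyond the 3′ end of the endogenous gene (rank 1129, signal 3.15). The nearest of the pooled list and of replicate 2 was the same base, 36979 bp away, and 58 bp upstream of fbxb-77.

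The partner gene eor-2 (chrX:14603017-14608660, plus strand) encodes the nuclear protein that acts with EOR-1. Its upstream candidate, chrX:14602561-14602964, had a signal of 5.17 in the pooled list (rank 1312) with the summit 254 bp upstream of the first start. Replicate 1 had a signal of 5.82 there (rank 296, summit 65 bp away), and replicate 2 had no entry within 200 bp. This site thus stood in the upper 11.9% of the list of replicate 1 and was missing from that of replicate 2. Its window held neither GACGCAG nor GAGAGA. The rule would also give this candidate to C44H4.6.

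The downstream candidate of eor-2, chrX:14610464-14610867, had a signal of 4.96 (rank 1403) and lay outside the gene, 4030 bp downstream of the internal start of C44H4.7d.1. It was nearer to rbc-1, with its summit 708 bp upstream of that gene's start. Replicate 1 had a summit 37 bp away with a signal of 2.84 (rank 1327), and replicate 2 had none within 200 bp. Between eor-2 and rbc-1 each replicate also had an entry of its own, with summits 212 bp apart (replicate 1 rank 1467, signal 2.78; replicate 2 rank 1044, signal 3.10) and no pooled summit within 200 bp of either. Replicate 2 had 1 more, in an eor-2 intron 1546 bp downstream of a start (rank 1425, signal 2.78). Both pooled candidates of eor-2 thus had a partner in replicate 1 and none in replicate 2.

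**Figure D3:**
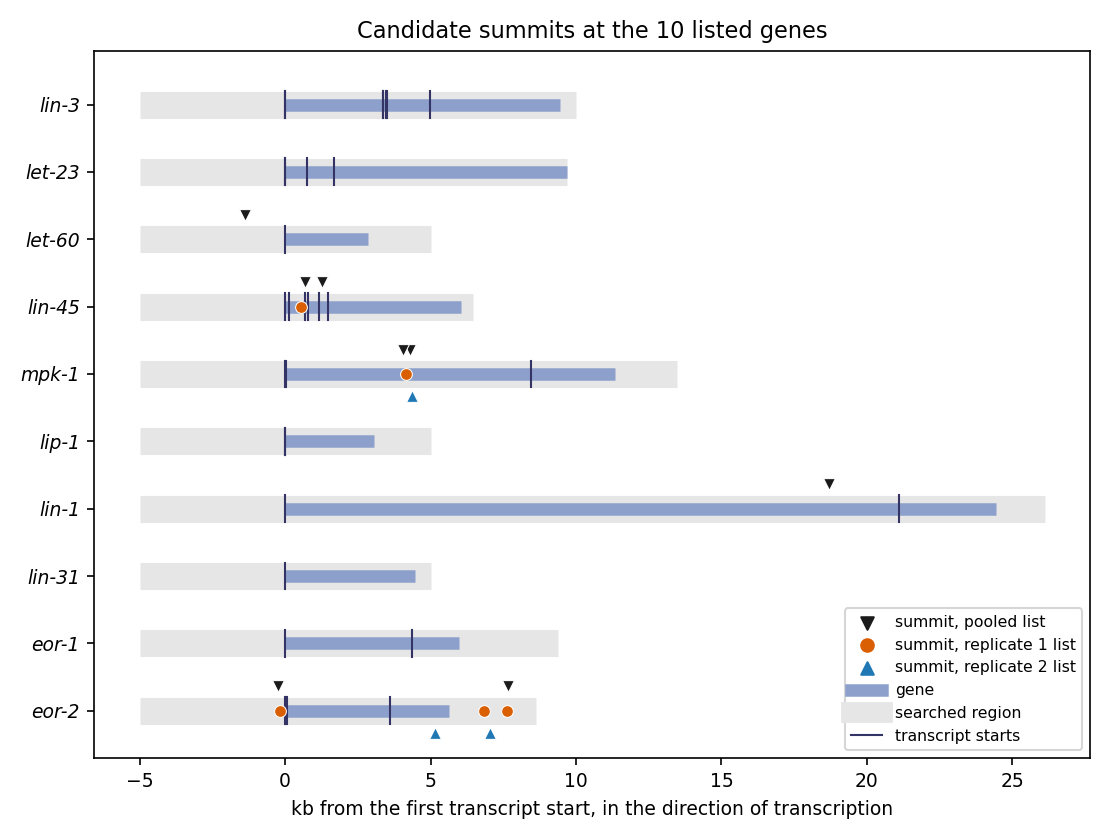
The 10 genes drawn to scale in kb from their first transcript start, in the direction of transcription, with transcript starts as vertical lines and the searched region in grey. Marks above, on and below each gene are summits of the pooled list, replicate 1 and replicate 2; lin-3, let-23, lip-1, lin-31 and eor-1 have none, and mpk-1 is the one gene where all 3 lists have summits within 200 bp of the strongest pooled summit.

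Support by the replicates was uneven. Of the 8 candidates, 1 had a summit in both replicate lists, against 7.8% of all pooled candidates, 4 had one in 1 list, and 3 had one in neither, against 48.2%. A partner in replicate 1 was found for 5 of the 8, against 31.2% of all pooled candidates, and a partner in replicate 2 for 1 of the 8, against 28.4%. Since both mpk-1 candidates share 1 replicate 1 summit, the 5 rest on fewer separate entries. Counted from the replicate lists themselves, 3 of the 10 genes (eor-2, lin-45 and mpk-1) had an entry in replicate 1, where 21.9% of protein-coding genes had one. In replicate 2 there were 2 (eor-2 and mpk-1), where 22.2% had one. The pooled list was made from the same reads as the replicate lists, so these counts are no independent evidence.

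The share held by the replicates fell with rank over the whole pooled list, so the 8 were read beside others of like rank. In the 100 strongest pooled candidates, where the first mpk-1 candidate lies, 85.0% were in both replicate lists. From there to rank 1000, which hold the second, 56.9% were in 1 list. The candidates at let-60, eor-2 (both) and the stronger one at lin-45 fall in ranks 1001 to 2000, where 7% were in both lists, 70.6% in 1 and 22.4% in neither; of these 4, 3 were in 1 list and the let-60 candidate was in neither. Beyond rank 2000, which hold lin-1 and the weaker lin-45 candidate, 62.9% were in neither.

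The same 7-base sequence also occurred at listed genes without a candidate, which is why all its matches are shown. Over the searched regions of the 10 genes there were 7 matches to GACGCAG, of which 2 lay within 100 bp of a pooled summit and 5 did not. On all nuclear chromosomes, 588 of 8374 matches (7.02%) were that close to a pooled summit. The matches are given with 11 bases on each side, 5′ to 3′ on the strand of the match in ce11, with the 7 bases in capitals. They lie at chrIII:4223801-4223807 (mpk-1), chrX:14610584-14610590 (eor-2, minus strand), chrIV:4795369-4795375 (eor-1), chrII:9201810-9201816 (let-23), chrII:3985815-3985821 (lin-31), chrIV:11054131-11054137 (lin-3 upstream, minus strand) and chrIV:11063002-11063008 (lin-3 intron).
mpk-1, 20 bp from a pooled summit: gagtatcaagaGACGCAGacatttagatg
eor-2 downstream, 79 bp from a pooled summit: ggcccgtgagaGACGCAGacgcgtttgcg
eor-1 intron, no candidate: ggtgataaggaGACGCAGcgaggggggtt
lin-31 intron, no candidate: gctggagaagaGACGCAGactttttcggg
lin-3 upstream, no candidate: gaaaatgcagaGACGCAGaggagagtcca
lin-3 intron, no candidate: taatcttaaaaGACGCAGttcaacctggt
let-23 coding exon, no candidate: tcacactttccGACGCAGaaaaatgtatg

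At mpk-1 and at eor-2 the match near the summit was the only GACGCAG in the whole searched region, 18.5 kb and 13.6 kb long. The letters GA stood before the 7 bases in 5 of the 7 matches, namely those at mpk-1, eor-2, eor-1 and lin-31 and the upstream one at lin-3. The upstream lin-3 match was 174 bp from a transcript start and 17633 bp from the nearest pooled summit, and the eor-1 match, in an intron, was 39157 bp from the nearest. A match with the same leading letters was thus present both at the strongest candidate of the 10 genes and where no list had an entry. No GACGCAG was found in the searched regions of let-60, lin-45, lin-1 and lip-1. GAGAGA was more common in the searched regions, with a median of 0.600 matches per kb over protein-coding genes. At the listed genes with a candidate it was 0.294 at eor-2, 0.523 at lin-45, 1.19 at lin-1, 1.20 at let-60 and 1.30 at mpk-1. At those without one it was 0.340 at let-23, 0.348 at eor-1, 0.734 at lin-3, 1.10 at lin-31 and 1.80 at lip-1. The part of these densities in the share of candidate windows with GAGAGA was not tested.

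Beyond the 10 genes, 38 other genes of the Ras and vulval induction pathways were examined, from adaptors and scaffolds to inhibitors, fibroblast growth factor genes and nuclear factors. Of these, 24 had a pooled candidate (63.2%), beside the background of 44.9%. The exact interval of 46.0 to 78.2 covers counting only and treats the genes as independent, so it is no test against that background. The searched regions of the 38 genes had a median length of 11.99 kb, beside 10.001 kb over all protein-coding genes. The part of region length in the share of 63.2% was not tested, and the list was chosen with earlier results of these data known. The 14 without one included the adaptor gene sem-5, the MAP kinase kinase gene mek-2 and the kinase suppressor of Ras gene ksr-1. The median rank of their 43 candidates was 3569, near the 3354.5 of all pooled candidates. For the 8 candidates of the 10 genes the median rank was 1357.5 and the median signal 5.07, beside 3.10 over all pooled candidates, and these 8 include the 2 at mpk-1, which share 1 summit of replicate 1. In both replicate lists there was 1 of the 43, beside 7.8% of all pooled candidates. In 1 list there were 19, and in neither 23, beside 48.2%. GACGCAG was present in 2 of the 43 and GAGAGA in 10, beside 8.06% and 26.9% of all pooled candidates.

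Of the 38 genes, 4 had one of the 1000 strongest candidates (10.5%, beside the background of 10.2%). These were lin-7, lin-10, let-92 and sur-2. LIN-7 and LIN-10 hold LET-23 at the basolateral membrane of vulval precursors together with LIN-2. The lin-7 candidate had rank 517 (signal 7.96) and no summit in either replicate list, and it was nearer to the start of elof-1 (90 bp) than to that of lin-7 (242 bp). The lin-10 candidate (rank 716, signal 6.90) was in an intron 1597 bp from a start, with rank 235 in replicate 1 and no summit in replicate 2. The let-92 gene encodes the catalytic subunit of protein phosphatase 2A, and its candidate (rank 831, signal 6.47, 1061 bp upstream) was the 1 in both replicate lists, at rank 1972 in replicate 1 and rank 255 in replicate 2. It was about as near to ech-2, at 1030 bp. The sur-2 gene encodes a Mediator subunit needed for vulval induction, and its candidate (rank 940, signal 6.06) lay 192 bp upstream of the start, with rank 302 in replicate 1 and none in replicate 2. No candidate of the 38 genes reached the rank of the first at mpk-1.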

How the data were processed

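The authors deposited narrowPeak lists on ce11, per the deposited file lists: 1 for each replicate, called against control data as input for IDR, 1 called on the pooled reads, and 1 thresholded by IDR from these. Each deposited entry has a signal value from the peak caller. Its normalization, the caller, the aligner, the read filters and the level of IDR applied are not stated in the labels or headers. The controls and the ce10 lists were not analysed here.

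Entries were ranked by signal value, and summits were taken as the peak start plus the summit offset, given 1-based. Genes, transcript starts and gene parts came from Ensembl release 115 (WBcel235, the ce11 assembly), and sequence from the RefSeq assembly of the same build. All 10 genes and all 38 other pathway genes were matched by name. Where transcripts of a gene gave a summit different parts, UTRs and coding exons took precedence over introns. Motifs were exact matches on both strands within 100 bp of a summit. Where a gene's candidate is nearer to another gene, that gene is named. All listed genes are named, and of the other pathway genes those with one of the 1000 strongest candidates; sem-5, mek-2 and ksr-1 were named after their values were seen. Groups and replicate numbers came from the labels. No significance test was run: with 1 group and peak lists, values are described beside the same measure over all protein-coding genes or all pooled candidates. Intervals are exact (Clopper-Pearson, 95%, scipy 1.17.1) and cover counting only. The members, gene lists and motifs were chosen with earlier results of these data known. Shared functions for placement, summit sharing and motif matching were tested on simulated data with known answers, with placements planted upstream of a start only. The searches that gave each gene its candidates and each candidate its replicate partners were separate code outside that test. Python 3.11.15 and matplotlib 3.10.9 were used.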

Additional observations from a re-analysis of the deposited data

How the results depend on the processing

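Counting only transcripts annotated as protein coding, or starts without gene bodies, left each count of listed genes and candidates where it was. With starts within 1000 bp, 4 listed genes had a candidate (let-60 dropped out), and 1 candidate had GACGCAG and 3 had GAGAGA; within 2000 bp 1 had GACGCAG. Within 10000 bp there were 14 candidates, 5 of them in neither replicate list and 9 with GAGAGA, and let-23 and lip-1 joined. The share of all protein-coding genes with a candidate was not computed within 1000, 2000 or 10000 bp. The counts at those distances therefore have no matching background, and a gain or loss particular to the listed genes was not tested. Among the 1000 strongest, 1 listed gene (mpk-1), 2 candidates and 4 other pathway genes were left, with 0 candidates in neither list, 1 with GACGCAG and 2 with GAGAGA. Among thresholded peaks every count was 0. With each replicate's list in place of the pooled one, leaving the other replicate out, 2 to 3 listed genes, 3 to 5 entries and 11 to 15 other pathway genes were left, which follows in part from the shorter lists. With summits within 100 bp, 0 candidates were in both replicate lists; within 500 bp, or by overlap, 2 were, both at mpk-1. Within 50 bp of summits, 1 candidate had GACGCAG and 3 had GAGAGA. No paired analysis was possible because the study has a single group. Read depth is unknown, so an empty region says only that no list has an entry there.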
